A study of Mus musculus with 13 samples.

Results

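The 9 genes described here encode transporters that carry drugs, bile acids, bilirubin conjugates, steroid sulfates and other organic anions into or out of hepatocytes. They were picked as a list of names, drawn up with earlier results of these data known: the uptake carriers Slco1a1, Slco1a4, Slco1b2, Slco2b1 and Slc22a7, and the efflux pumps Abcc2, Abcc3, Abcc4 and Abcb1a. All 9 were found among the 22048 genes of the count table, each as 1 protein-coding gene, and all 9 passed the filter on low counts. The samples were 13 whole mouse livers profiled by RNA-seq. Of these, 6 were control livers not depleted of hepatic stellate cells (replicates 1, 2 and 6 male, 3, 4 and 5 female). A further 4 livers had been depleted of hepatic stellate cells, pericyte-like cells of the sinusoids that store vitamin A (replicate 3 male, 1, 2 and 4 female). The last 3 livers were not depleted and were taken 72 h after partial hepatectomy, in which part of the organ is cut away and the rest grows back (replicates 1 and 2 male, 3 female). The labels used here give no strain, age or method of depletion and do not say whether each library came from a separate animal, so p-values measure only the spread between these samples. Library totals were 35360991 to 42784362 counts in the controls, 37848305 to 51008737 in the depleted group and 39633635 to 46228433 after hepatectomy.

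Hepatocytes take up organic anions from sinusoidal blood through the organic anion transporting polypeptides (OATPs, Slco genes) and the organic anion transporters (OATs, Slc22a genes). ATP-binding cassette (ABC) pumps move the compounds and their conjugates out again. Abcc2 (MRP2) and P-glycoprotein lie in the canalicular membrane and discharge into bile, whereas Abcc3 (MRP3) and Abcc4 (MRP4) lie in the basolateral membrane and return compounds to blood. Several of these genes are known in mouse liver for levels that differ between males and females.

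Levels are given in CPM, counts scaled to library size with TMM (trimmed mean of M values) normalization, and between genes as CPM per kilobase of exon. Some facts of the libraries bear on what follows. Stellate markers (18 genes) summed to 383 to 989 CPM in controls, 453 to 834 after hepatectomy and 22.0 to 142 with depletion, with depleted replicate 4 highest of its group and up to 6 of the 18 genes at 0 in a depleted library. Markers of 12 Kupffer cell genes summed to 111 to 784 CPM in control and 1766 to 3488 in depleted livers. Control replicate 6 and hepatectomy replicate 2 stood apart, with the lowest Kupffer sums (111 and 122 CPM) and endothelial sums (149 and 161 CPM, against 341 to 702 in the other libraries). Hepatocyte markers (15 genes, none at 0) summed to 95090 to 165000 CPM in controls, 89130 to 194900 with depletion and 161000 to 217200 after hepatectomy. Y-linked counts matched the labelled sex, apart from 73 counts in depleted replicate 4, labelled female, where labelled males had 4051 to 7741; the source of these counts was not tested.

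The transporters spanned a wide range of abundance in control liver. Slco1b2, the rodent counterpart of the human hepatic OATP1B carriers, was the most abundant per length at 353.7 CPM per kb (range 305 to 385), above every other member in all 6 controls. Slco1a1 (mean 98.9 CPM per kb) and Abcc2 (82.8) followed, with ranges that overlapped. Abcc3 (41.9), Slco1a4 (37.7), Slco2b1 (30.4) and Slc22a7 (12.3) formed a run in which each range overlapped the next. Abcb1a (1.62 CPM per kb) and Abcc4 (0.354) were lowest and overlapped each other. In depleted livers Slco1b2 again led at 146.5 CPM per kb, but Slco1a1 averaged 4.85 CPM per kb, below Slc22a7 (7.94). That mean rested on depleted replicate 4 at 14.8 CPM per kb, and without it Slco1a1 averaged 1.54 CPM per kb, the lowest of the members. After hepatectomy Slco1b2 (211.8 CPM per kb), Abcc2 (63.7) and Slco1a1 (40.9) headed the order, and the ranges of the second and the third overlapped. Abcc4 had the lowest mean in control and hepatectomised livers, and in depleted livers only with replicate 4 included (1.497 CPM per kb, and 1.61 without it).

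**Figure D1:**
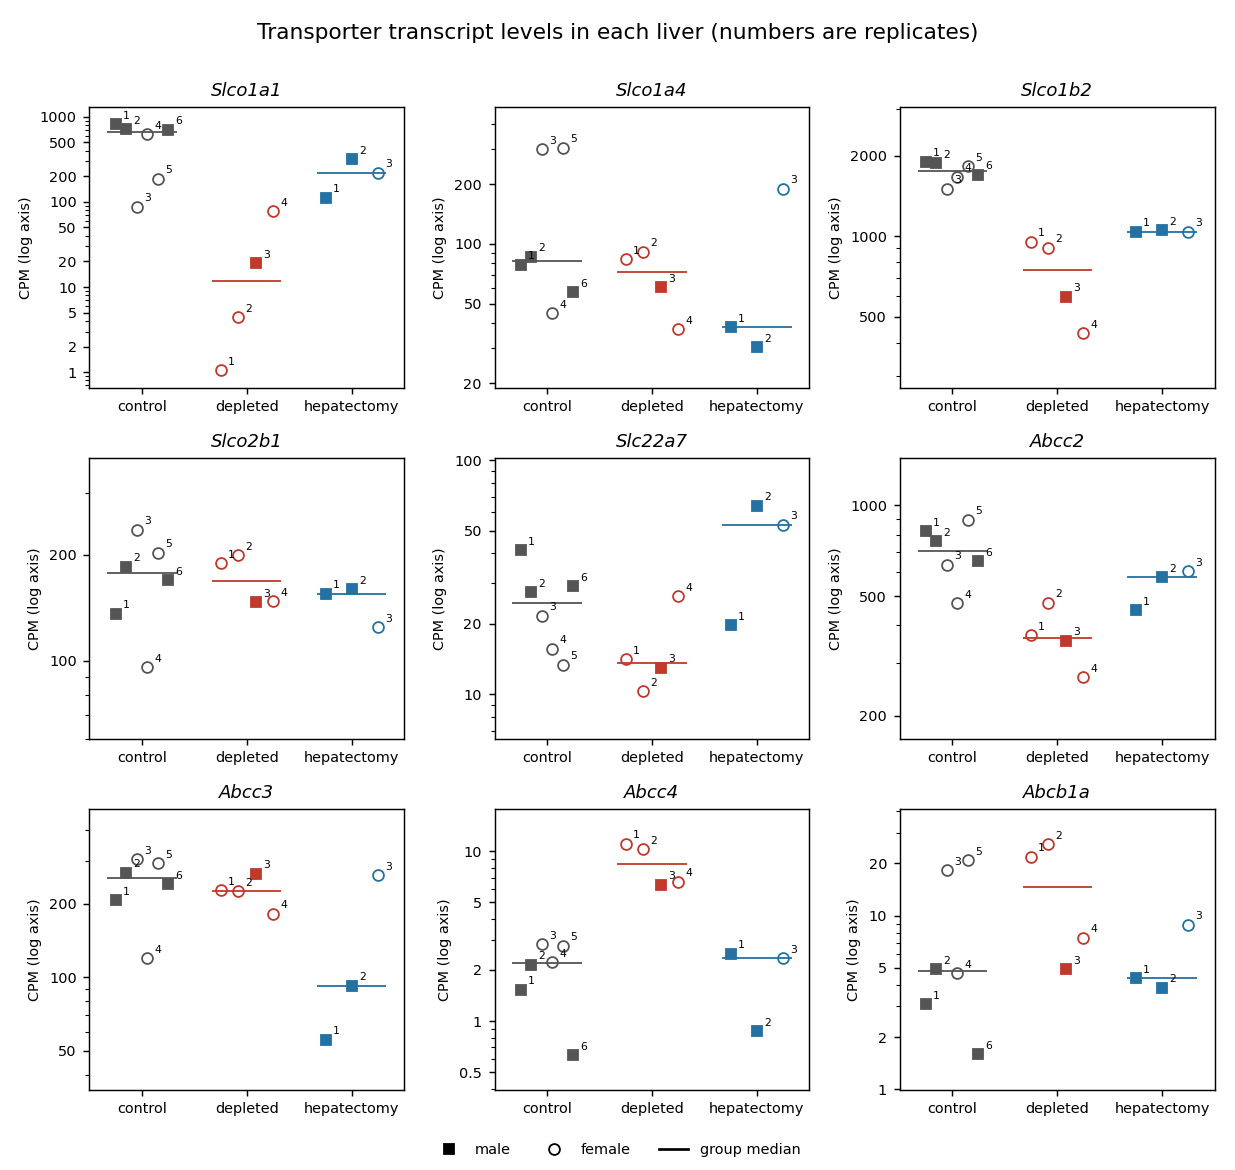
Transcript level of each of the 9 transporters in CPM (log axis) in every liver, by group; filled squares are males, open circles females, numbers are replicates and lines are group medians. Slco1a1 and Slco1b2 lie lower in all 4 depleted livers than in any control, and Abcc4 lies higher.

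Between depleted and control livers, 3 of the 9 members fell (Slco1a1, Slco1b2 and Abcc2) and 1 rose (Abcc4) at an adjusted p under 0.05 in edgeR's quasi-likelihood test with sex in the model. Over all 13831 genes tested the same test called 33.9%, 15.0% lower and 18.9% higher, so 4 of 9 is not far from the share of all genes and is no result about the members as a group. The members' median log2 fold change was -0.49, against -0.03 over all genes tested. CPM ranges did not overlap for 3 members, against 28.4% of all genes. In whole liver RNA, fewer cells of a type and less RNA per cell cannot be told apart.

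Sequence just before the annotated start is shown for the members whose groups did not overlap, because Slco1a1 and Slco1b2 went one way and Abcc4 the other. RefSeq start windows on GRCm38.p6 were matched for 7 of the 9 members. The 250 bases upstream of the start lie at chr6:141946963-141947212 on the minus strand for Slco1a1, chr6:141629268-141629517 on the plus strand for Slco1b2 and chr14:118706220-118706469 on the minus strand for Abcc4. Each is written 5′ to 3′ along the gene's strand, with capitals for matches to 4 motifs searched on both strands: the antioxidant response element core TGACNNNGC, the STAT core TTCNNNGAA, the HNF1 half-site GTTAAT and the nuclear receptor half-site AGGTCA.
Slco1a1: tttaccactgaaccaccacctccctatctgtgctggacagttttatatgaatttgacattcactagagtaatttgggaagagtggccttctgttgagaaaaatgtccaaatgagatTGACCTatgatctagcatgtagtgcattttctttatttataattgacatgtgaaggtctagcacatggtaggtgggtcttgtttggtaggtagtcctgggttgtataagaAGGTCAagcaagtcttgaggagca
Slco1b2: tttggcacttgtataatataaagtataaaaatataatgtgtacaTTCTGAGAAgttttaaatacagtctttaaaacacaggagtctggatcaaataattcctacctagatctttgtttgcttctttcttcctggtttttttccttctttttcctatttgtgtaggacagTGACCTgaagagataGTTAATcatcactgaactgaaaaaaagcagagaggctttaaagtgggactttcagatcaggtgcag
Abcc4: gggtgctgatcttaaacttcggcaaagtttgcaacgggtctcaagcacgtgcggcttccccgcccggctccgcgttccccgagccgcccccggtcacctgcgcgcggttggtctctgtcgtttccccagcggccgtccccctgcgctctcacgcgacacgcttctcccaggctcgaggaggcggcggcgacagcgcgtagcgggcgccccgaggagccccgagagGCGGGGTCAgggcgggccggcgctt
The Slco1a1 window held 2 nuclear receptor half-sites and no other match. The Slco1b2 window held 1 STAT core, 1 nuclear receptor half-site and 1 HNF1 half-site. The Abcc4 window, the most GC-rich of the 3 at 72.0% GC against 40.4% for Slco1a1 and 33.6% for Slco1b2, held 1 antioxidant response element core. No matches overlapped one another in these windows. The antioxidant core also lay in a second Abcc4 window, at a RefSeq start inside the gene, and in the RefSeq window of Abcc2, a member that fell. The Abcc2 window held a nuclear receptor half-site too, and both of its matches lie past the gene start that GENCODE gives, so they are upstream of the RefSeq start only. Of 32851 mouse windows of this length, 14.02% held the nuclear receptor half-site, 10.16% the antioxidant core, 7.02% the STAT core and 6.43% the HNF1 half-site, so each motif is common and a match is a description of the letters only.

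Slco1a1 (ENSMUSG00000041698, GRCm38 chr6:141907282-141946962, minus strand) encodes a sinusoidal OATP that is known to be higher in male mouse liver. Control livers ranged from 87.7 to 811 CPM with a median of 663.8. The depleted livers had 1.05, 4.39, 19.0 and 77.85 CPM in replicates 1 to 4, and the hepatectomised livers 112, 315 and 220.2 CPM in replicates 1 to 3. All 4 depleted livers lay below every control and every hepatectomised liver, and depleted replicates 1 and 2 lay lowest of all. Slco1a1 fell with depletion by 4.06 on the log2 scale (SE 1.14, 95% interval -6.54 to -1.58, edgeR adjusted p = 0.0157), a 16.7-fold lower fitted level. Depleted replicate 4 had the highest residual stellate sum and the highest Slco1a1 of its group, but the lowest Slco1b2 (434.0 CPM) and Abcc2 (268.9 CPM). The fall of Slco1a1 was -6.08 without that replicate. Without depleted replicate 3, the single depleted male, it was -3.66 and missed the threshold (edgeR adjusted p = 0.0690). Among females alone it was -3.44 (edgeR adjusted p = 0.180). Against hepatectomised livers the depleted livers did not overlap, at a log2 difference of -2.82 (95% interval -5.32 to -0.31, edgeR adjusted p = 0.0982), and without depleted replicate 4 the difference was -4.89 (adjusted p = 0.00320). After hepatectomy the difference from control was -1.24 (SE 1.05, edgeR adjusted p = 0.508), with overlapping ranges.

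Slco1a4 (ENSMUSG00000030237, chr6:141805440-141856199, minus strand), a sinusoidal OATP that also carries cardiac glycosides, ranged from 44.9 to 304.6 CPM in controls with a median of 82.4. Depleted livers had 83.8, 91.5, 60.8 and 37.2 CPM in replicates 1 to 4, and hepatectomised livers 38.2, 30.3 and 189.3 CPM in replicates 1 to 3. The depleted range lay mostly inside that of control, apart from replicate 4, and the high control values were those of females 3 and 5. The log2 difference with depletion was -1.14 (SE 0.52, 95% interval -2.27 to -0.02, edgeR adjusted p = 0.109), which did not pass the test. It passed without control replicate 4 (-1.37, adjusted p = 0.0216), and without depleted replicate 3 it was -1.76 (adjusted p = 0.0540). After hepatectomy it was -0.74 (SE 0.56, edgeR adjusted p = 0.457), and the single female, replicate 3, lay far above both males. Without that female it was -1.36 (edgeR adjusted p = 0.287).

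Slco1b2 (ENSMUSG00000030236, chr6:141629518-141686646, plus strand) takes up bilirubin, bile acids and many drugs at the sinusoidal membrane. It ranged from 1503 to 1899 CPM in controls (median 1759). Depleted livers had 954.7, 906.5, 593.9 and 434.0 CPM, and hepatectomised livers 1038, 1054 and 1039 CPM. All depleted and all hepatectomised livers lay below every control, and every depleted liver lay below every hepatectomised one. With depletion Slco1b2 fell by 1.28 on the log2 scale (SE 0.21, edgeR adjusted p = 0.000593), a 2.42-fold lower level, and the call held under each alternative run (-1.43 to -1.11). The hepatectomised livers were close to one another (SD 9.10 CPM, n = 3), and their log2 difference from control was -0.74 (SE 0.23, 95% interval -1.22 to -0.25, edgeR adjusted p = 0.0624), just outside the threshold. It passed in DESeq2 (adjusted p = 0.0134) and without depleted replicate 4 (-0.73, adjusted p = 0.0166). The depleted and hepatectomised livers differed by -0.54 (SE 0.25, edgeR adjusted p = 0.135).

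Slco2b1 (ENSMUSG00000030737, chr7:99657804-99711340, minus strand), an OATP that takes up steroid sulfates and statins, ranged from 96.0 to 235.6 CPM in controls (median 177). Depleted livers had 189.3, 199.8, 146.6 and 147.6 CPM and hepatectomised livers 155, 159.9 and 124 CPM. The 3 groups overlapped. Mean levels were 170.7 CPM in control and 170.8 CPM in depleted livers, with a fitted log2 difference of -0.02 and a 95% interval of -0.50 to 0.47 (edgeR adjusted p = 0.967). After hepatectomy the log2 difference was -0.21 (SE 0.24, adjusted p = 0.652).

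Slc22a7 (ENSMUSG00000067144, chr17:46432183-46438457, minus strand) encodes OAT2, a carrier of small organic anions and nucleobase-like drugs. It ranged from 13.4 to 41.2 CPM in controls (median 24.5). Depleted livers had 14.1, 10.3, 13.01 and 26.3 CPM and hepatectomised livers 19.7, 64.0 and 53.0 CPM. Hepatectomy replicates 2 and 3 lay above every other liver, while replicate 1 lay within the control range. Neither difference from control passed the test: the log2 value was -0.49 with depletion (SE 0.41, edgeR adjusted p = 0.394) and 0.90 after hepatectomy (SE 0.40, edgeR adjusted p = 0.197). Depleted livers were lower than hepatectomised ones by -1.39 (SE 0.47, edgeR adjusted p = 0.0494). That call sat at the threshold and was lost in 13 of 22 alternatives, with values from -1.80 to -0.95.

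Abcc2 (ENSMUSG00000025194, chr19:43782192-43840740, plus strand), the canalicular pump that excretes conjugated bilirubin, ranged from 473 to 896.7 CPM in controls (median 705.8). Depleted livers had 370.7, 474.6, 354.9 and 268.9 CPM and hepatectomised livers 449, 576 and 605.6 CPM. Only depleted replicate 2 reached the control range, at the level of the lowest control, replicate 4. Abcc2 fell with depletion by 0.94 on the log2 scale (SE 0.21, edgeR adjusted p = 0.00421), to a 1.92-fold lower level. Among females alone the value was -0.84 and missed the threshold (edgeR adjusted p = 0.101). After hepatectomy the log2 difference was -0.38 (SE 0.22, edgeR adjusted p = 0.324).

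Abcb1a (ENSMUSG00000040584, chr5:8660077-8748575, plus strand) is a P-glycoprotein gene. P-glycoprotein pumps many drugs across the canalicular membrane, and endothelial cells are known to express it as well. Control livers ranged from 1.59 to 20.9 CPM (median 4.80), depleted livers had 21.9, 25.7, 4.93 and 7.49 CPM, and hepatectomised livers 4.38, 3.85 and 8.85 CPM. Highest were the females control 3, control 5, depleted 1 and depleted 2. The log2 difference with depletion was 0.47 (SE 0.46, edgeR adjusted p = 0.468) and after hepatectomy -0.03 (SE 0.52, edgeR adjusted p = 0.979). Of the 50-base stretches of Abcb1a transcripts, 17.6% also occur in Abcb1b or Abcb4, so part of its count depends on how reads were shared between copies. The share was at most 1.64% for every other member.

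Abcc3 (ENSMUSG00000020865, chr11:94343295-94392997, minus strand), a basolateral pump of glucuronides, ranged from 119.8 to 304.9 CPM in controls (median 254). Depleted livers had 227, 224.8, 265.7 and 182 CPM, all within the control range. Hepatectomised livers had 55.5, 92.55 and 262 CPM. The males, replicates 1 and 2, lay below every control, whereas the female, replicate 3, lay inside the control range. The log2 difference with depletion was -0.16 (SE 0.36, edgeR adjusted p = 0.776) and after hepatectomy -0.85 (SE 0.41, edgeR adjusted p = 0.224). Without hepatectomy replicate 3 the hepatectomy difference was -1.74 (adjusted p = 0.0158), and depleted livers were higher than hepatectomised ones by 1.67 (adjusted p = 0.0149), against 0.69 with all libraries.

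Abcc4 (ENSMUSG00000032849, chr14:118482692-118706219, minus strand) is the basolateral pump for bile acids, conjugated steroids and cyclic nucleotides. Controls ranged from 0.630 to 2.83 CPM (median 2.19), or 21 to 120 counts. Depleted livers had 11.1, 10.3, 6.34 and 6.62 CPM in replicates 1 to 4, from 297 to 517 counts. All 4 lay above every control and above the hepatectomised livers, which had 2.499, 0.870 and 2.34 CPM. With depletion Abcc4 rose by 1.95 on the log2 scale (SE 0.34, 95% interval 1.21 to 2.68, edgeR adjusted p = 0.000774), 3.86-fold. Compared with hepatectomy the depleted livers were higher by 1.88 (SE 0.44, edgeR adjusted p = 0.00865), a call lost without hepatectomy replicate 3 (1.75, adjusted p = 0.0523). The hepatectomy difference from control was 0.06 (SE 0.38, edgeR adjusted p = 0.942).

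Markers of other cells also rose with depletion. Beside 18.9% of all genes tested, 8 of 12 Kupffer, 15 of 15 tested monocyte and neutrophil and 14 of 14 lymphocyte markers rose. Their sums went from 111 to 784, 16.7 to 125 and 5.78 to 11.02 CPM in control to 1766 to 3488, 716 to 1227 and 78.6 to 181 CPM in depleted livers, with no gene of the 3 lists at 0 in a depleted library. After hepatectomy 8 of 15 monocyte and neutrophil markers rose, beside 6.06% of all genes, and Abcc4 did not pass the test. The lowest Abcc4 values of the series were in control replicate 6 and hepatectomy replicate 2. That pair of libraries also had the lowest Kupffer and endothelial sums. Other libraries went against that order. Depleted replicates 3 and 4 had the highest Kupffer sums (2665 and 3488 CPM) but the lowest Abcc4 of the depleted group (6.34 and 6.62 CPM). Hepatectomy replicate 1 had a Kupffer sum of 985 CPM, above every control, with Abcc4 (2.499 CPM) inside the control range. The part of these libraries and cells in the Abcc4 result was not tested. Without control replicate 6 the log2 fold change with depletion was 1.82 (edgeR adjusted p = 0.000484), against 1.95 with all libraries.

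**Figure D2:**
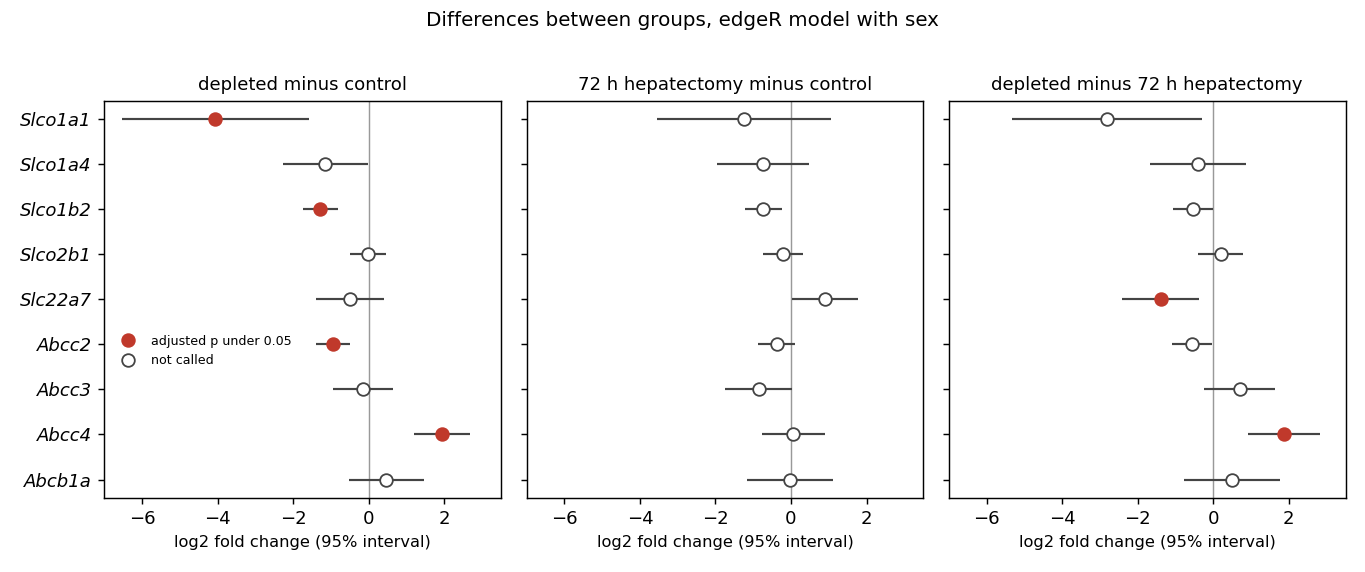
Log2 fold changes of the 9 transporters (points) with 95% intervals (bars) for depleted against control, hepatectomy against control and depleted against hepatectomy, from edgeR with sex in the model; filled points passed the adjusted threshold. With depletion Slco1a1, Slco1b2 and Abcc2 lie below 0 and Abcc4 lies above, and no point is filled for hepatectomy against control.

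After hepatectomy no member passed the test in edgeR, where 8.42% of all genes tested did. At an unadjusted p under 0.05 there were 2, Slco1b2 and Slc22a7, beside 24.3% of all genes, so 2 of 9 is near the share of all genes. DESeq2 called 1, Slco1b2, among 14.0% of all genes. Slco1b2 was the single member whose range did not overlap that of control, as for 13.7% of all genes tested. The depleted and hepatectomised livers compared with each other gave 1 member lower (Slc22a7) and 1 higher (Abcc4), with 23.4% of all genes called, 10.1% lower and 13.3% higher. Ranges did not overlap for 3 members, Slco1a1, Slco1b2 and Abcc4, against 34.0% of all genes. The depletion and hepatectomy comparisons share their 6 controls.

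Summed per length, the 5 uptake carriers came to 533 ± 56.4 CPM per kb in controls (SD, n = 6), 207.5 ± 53.1 with depletion (n = 4) and 323.8 ± 38.8 after hepatectomy (n = 3). The depleted livers (151.9 to 256) and the hepatectomised livers (279 to 350.3) all lay below the lowest control at 452. The 4 efflux pumps came to 127 ± 27.6 CPM per kb in controls, 86.8 ± 15.0 with depletion and 89.1 ± 28.0 after hepatectomy, and these ranges overlapped. Slco1b2 made up a similar part of the 4 OATPs in each group, at 68.0%, 72.3% and 70.8% on average in control, depleted and hepatectomised livers. Slco1a1 made up 18.4%, 3.31% and 13.3%, and 0.863% in depleted livers without replicate 4, which had 10.6%. Slco2b1, whose own level did not pass the test, went from 5.95% to 15.7% of the 4 OATPs with depletion. Among the efflux pumps, the ratio of canalicular Abcc2 to basolateral Abcc3 per length averaged 2.07 ± 0.493 in controls, 1.09 ± 0.225 with depletion and 3.70 ± 1.97 after hepatectomy. The hepatectomised males had ratios of 5.40 and 4.16, whereas the female (1.54) lay inside the control range of 1.39 to 2.65. Depleted replicate 2 (1.41) also lay just inside that range, and the other depleted livers lay below it. Depleted replicates 3 and 4 were the libraries with more Abcc3 than Abcc2 per length, at ratios of 0.892 and 0.986.

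**Figure D3:**
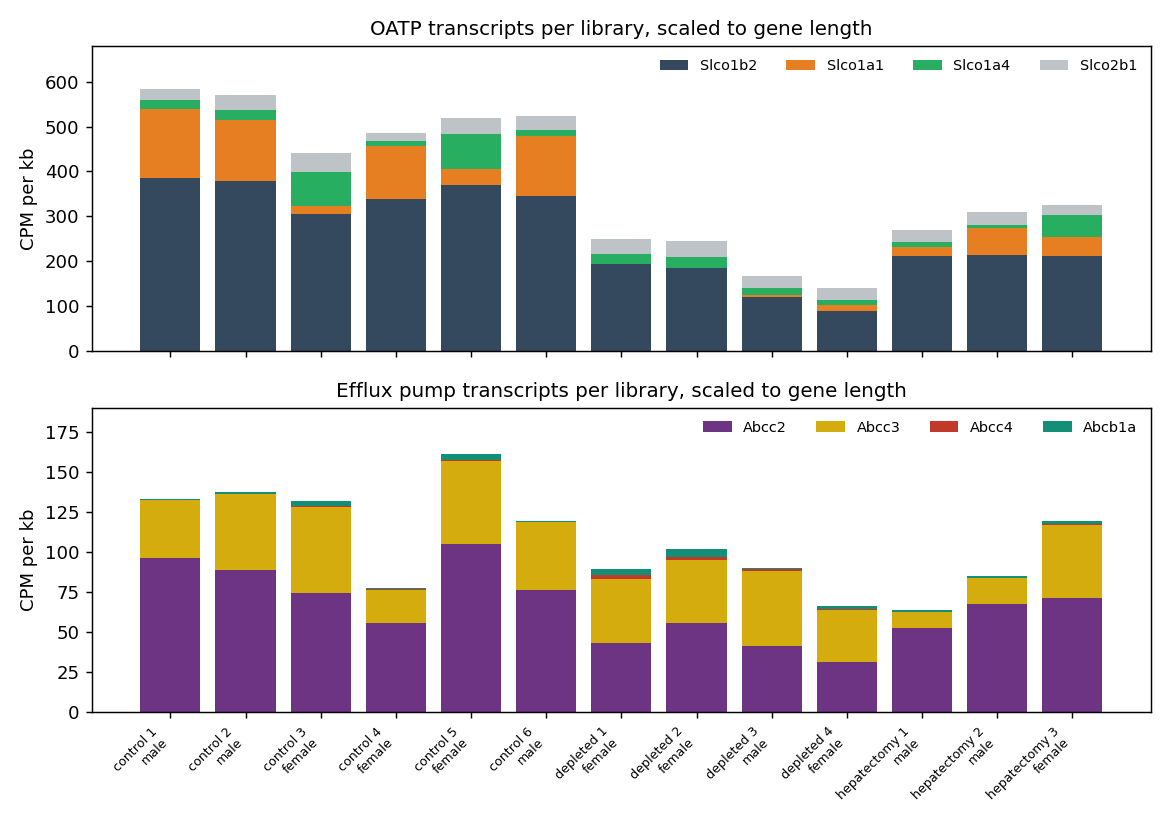
Levels in CPM per kb of the 4 OATPs (top) and of the 4 efflux pumps (bottom) in each liver, stacked by gene in bars from 0. Slco1b2 is the largest OATP block in every liver, Slco1a1 is hardly visible in depleted replicates 1 and 2, and Abcc3 exceeds Abcc2 in depleted replicates 3 and 4.

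Sex was balanced in the controls alone, with 3 males and 3 females. Slco1a1 stood at 811, 717 and 707 CPM in male controls and at 87.7, 620.7 and 186.5 CPM in females 3, 4 and 5. Slco1a4 stood at 78.7, 86.15 and 57.1 CPM in males and at 299.5, 44.9 and 304.6 CPM in females. Abcb1a stood at 3.08, 4.92 and 1.59 CPM in males and at 18.3, 4.68 and 20.9 CPM in females. Females 3 and 5 thus had low Slco1a1 with high Slco1a4 and Abcb1a, and female 4 had values at or near those of the males in all 3 genes. Female 4 had no Y-linked count, and its female-biased liver genes (20 genes) summed to 4468 CPM, against 3675 and 4466 in the other females and 37.4 to 77.8 in males. The source of its transporter levels was not tested.

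No member passed the test between male and female controls in edgeR, where 0.738% of the 13005 genes tested did. There were 2 at an unadjusted p under 0.05, Slc22a7 and Abcb1a, beside 13.2% of all genes, and DESeq2 called the same pair among 3.42% of all genes. Slc22a7 was 27.3 to 41.2 CPM in males and 13.4 to 21.7 CPM in females, with no overlap, at a log2 difference of 0.94 (SE 0.23, male minus female, edgeR adjusted p = 0.147). The differences were 1.31 for Slco1a1 (SE 0.69, adjusted p = 0.449), -1.55 for Slco1a4 (SE 0.69, adjusted p = 0.402) and -2.19 for Abcb1a (SE 0.64, adjusted p = 0.266). With each control left out in turn, these 3 passed in edgeR without control replicate 4 alone, at 2.44, -2.03 and -2.61, where 1.02% of genes were called. That library was set apart above by the same 3 genes, so these values are a description and no test of a sex difference. The other members had log2 differences between -0.86 (Abcc4) and 0.15 (Abcc2). Outside the controls, hepatectomy replicate 3, a female, had more Slco1a4 and Abcb1a than the 2 hepatectomised males, but its Slco1a1 (220 CPM) lay between theirs (112 and 314.7 CPM). Depleted females 1 and 2 had more Slco1a4 and Abcb1a and less Slco1a1 than the depleted male. Depleted female 4 went the other way for Slco1a1 (77.85 against 19.0 CPM in the male) and Slco1a4 (37.2 against 60.8 CPM). For Abcb1a it also lay above the male (7.49 against 4.93 CPM). Slc22a7 had no shared direction, at 14.1, 10.3 and 26.3 CPM in females 1, 2 and 4 and 13.01 CPM in the male. The sex difference itself did not pass a test of difference between depleted and control livers for any member (edgeR, lowest adjusted p = 0.9999 among the 9), where 0.0217% of genes passed and none of the members was under an unadjusted p of 0.05, beside 3.47% of all genes; the depleted group holds 1 male.

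**Figure D4:**
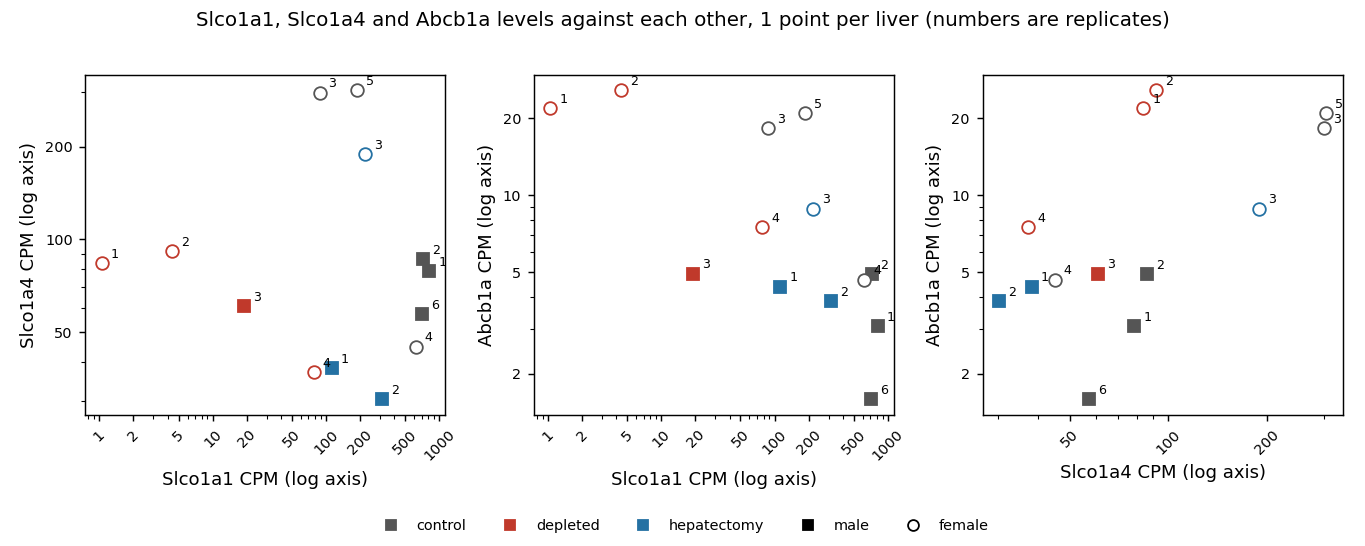
Slco1a1, Slco1a4 and Abcb1a plotted against each other in CPM (log axes), 1 point per liver; squares are males, circles females and numbers are replicates. Control females 3 and 5 (open grey circles) sit apart from the male controls, at 299.5 and 304.6 CPM of Slco1a4, while control female 4 lies at 44.9 CPM beside the males.

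The genes most like each member across the 13 livers were ranked by Pearson's r of log2 CPM, given as a description only since group and sex are shared by all genes. For Slco1a1 the closest were the major urinary protein genes Mup1 (r = 0.978), Mup10 (0.977) and Mup3 (0.954), male-biased liver secretory genes whose near-identical copies make read sharing uncertain. Mup1 was at 603 CPM in control female 4, against 146 and 288 CPM in females 3 and 5 and 622 to 918 CPM in males. Mup10 was at 248 CPM in female 4, against 132.8 and 116.7 CPM in females 3 and 5 and 354.9 to 638.6 CPM in males. Mup3 was at 2540 CPM in female 4, against 1487 and 2697 CPM in females 3 and 5 and 8639 to 14510 CPM in males, so it lay with the females there. For Abcb1a they included the flavin monooxygenase gene Fmo2 (0.935) and the monocarboxylate carrier Slc16a7 (0.927). Fmo2 stood at 65.2 and 87.5 CPM in control females 3 and 5, at 21.6 CPM in female 4 and at 6.15 to 13.8 CPM in male controls. For Slco1a4 they were Dpys (0.925), Mpc1 (0.877) and Dpyd (0.863), of which Dpys and Dpyd are pyrimidine catabolism enzymes. For Abcc4 they were the interferon-inducible GTPase genes Tgtp1 (0.982) and Tgtp2 (0.980), near-identical copies of each other, and the endotoxin receptor Tlr4 (0.979). Tgtp1 was at 0.240 to 4.65 CPM in controls and 49.7 to 217 CPM in depleted livers, lowest like Abcc4 in control replicate 6. For Slco1b2 the closest were Rb1cc1 (0.979), an autophagy initiation gene, Arhgap42 (0.963) and Acadsb (0.961), and for Abcc2 Mylk (0.939), Fnip1 (0.922) and Pccb (0.919). For Slco2b1 they were Zmat1 (0.867), Tent2 (0.840) and Rsrc1 (0.824), for Slc22a7 Rab34 (0.888), Fam53c (0.885) and Taf5 (0.878), and for Abcc3 Adprm (0.873), Nop53 (0.867) and Tstd1 (0.862).

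Other transporters of the same kinds moved in both directions with depletion. Of 24 other uptake carriers tested, 7 rose and 6 fell, where 18.9% of all genes rose and 15.0% fell (median log2 fold change -0.07, against -0.03 over all genes). The nucleoside carrier Slc28a2 rose from 0.752 ± 0.253 to 9.38 ± 1.147 CPM (log2 3.59, SE 0.34, edgeR adjusted p = 1.34e-05), and Slc22a30, a relative of Slc22a7, fell from 158.7 ± 82.7 to 42.95 ± 6.47 CPM (log2 -1.62, SE 0.32, edgeR adjusted p = 0.00186). Of 18 other efflux transporters tested, 2 rose and 7 fell (median -0.36), against the same shares of all genes. The canalicular phospholipid pump Abcb4 fell from 243.7 ± 34.8 to 89.1 ± 7.64 CPM (log2 -1.49, SE 0.17, edgeR adjusted p = 4.00e-05), and Abcg8, part of the biliary sterol pump, fell by 1.31 (SE 0.30, adjusted p = 0.00438). Those that rose were Abcc5 (log2 1.78, SE 0.25) and Abcc1 (log2 1.63, SE 0.39), relatives of Abcc4 that export nucleotides and conjugates. After hepatectomy, where 8.42% of all genes were called in either direction, 1 of the 24 uptake carriers rose (Slc22a5, the carnitine carrier, log2 1.09, SE 0.23) and 1 fell (Slc22a30, -1.16, SE 0.33), and 1 of the 18 efflux transporters fell (Atp7b, the copper pump, -0.61, SE 0.17).

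**Figure D5:**
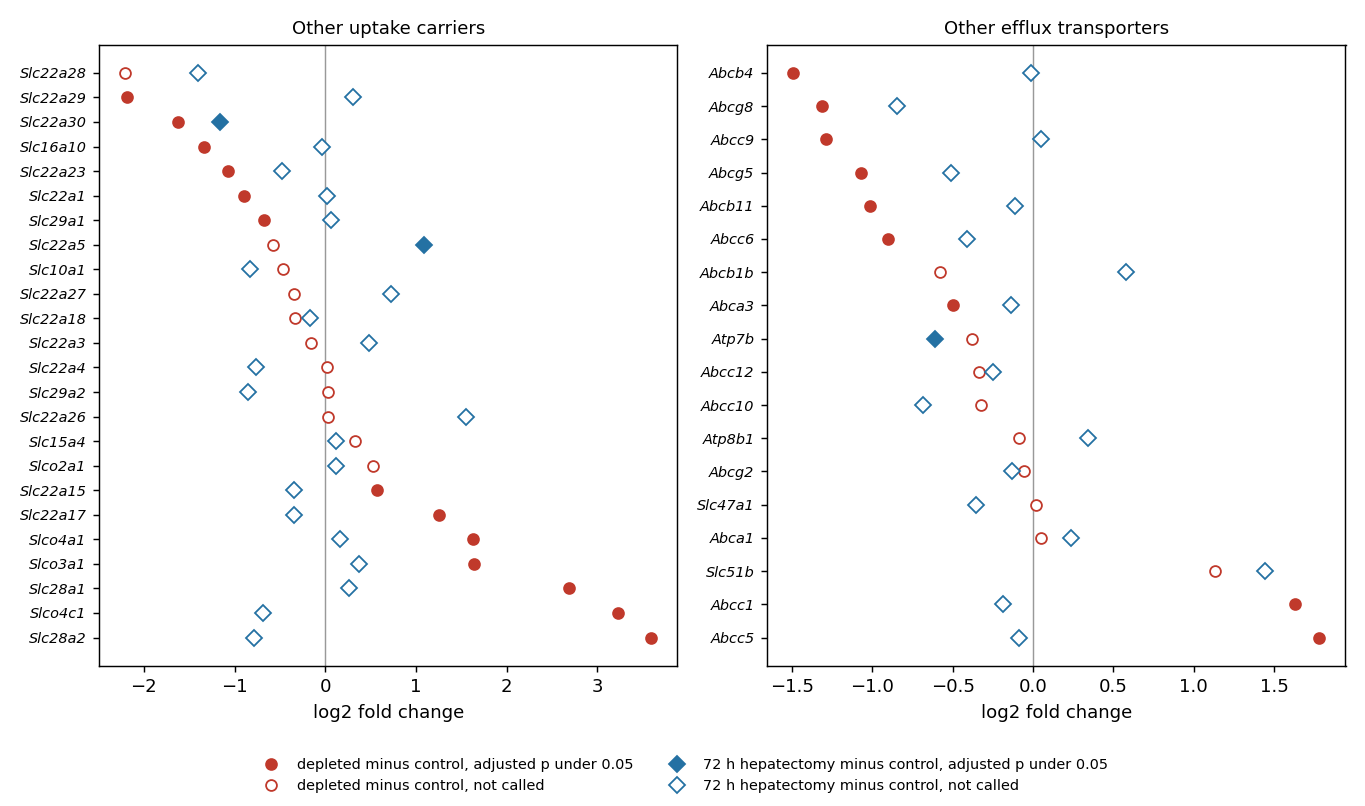
Log2 fold changes of the other uptake carriers (left, 24 genes) and other efflux transporters (right, 18 genes) for depleted minus control (circles) and 72 h hepatectomy minus control (diamonds); filled symbols passed the edgeR adjusted threshold of 0.05. With depletion 7 carriers rose and 6 fell and 2 pumps rose and 7 fell, whereas 3 diamonds are filled.

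Proteins that hold transporters at the membrane were a further list. Of its 10 scaffold and trafficking genes, 2 rose and 3 fell with depletion (median 0.09), beside 33.9% of all genes called. Pdzk1, which anchors OATPs by their C-terminal ends, fell from 80.7 ± 7.87 to 40.7 ± 4.05 CPM (log2 -1.004, SE 0.12, edgeR adjusted p = 6.28e-05), and Rdx (radixin), which tethers Abcc2 at the canaliculus, fell from 228 ± 16.9 to 118 ± 15.2 CPM (log2 -0.95, SE 0.13, edgeR adjusted p = 0.000115). The related Ezr (log2 2.01, SE 0.19) and Msn (log2 1.96, SE 0.34) rose, and both are also abundant in leukocytes, whose markers rose in the same livers; their part was not tested. After hepatectomy 1 of the 10 rose, Ezr (log2 0.96, SE 0.20).

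Transcription factors and receptors known to control these transporters were a list of 29 genes, of which 1 rose and 7 fell with depletion (median -0.23). These 8 of 29 are fewer than the 33.9% of all genes called in either direction, so the count is no result about the list. By direction, 15.0% of all genes fell and 18.9% rose, and the balance of falls and rises in each list was not tested. The NRF2 and receptor target counts given next stand against the same shares. Those after hepatectomy stand against 8.42%, made up of 6.06% higher and 2.36% lower. Ppara, the fatty acid receptor, fell by 1.45 (SE 0.29, edgeR adjusted p = 0.00190), and Ghr, the growth hormone receptor, fell by 1.34 (SE 0.17, edgeR adjusted p = 9.95e-05), from 667 ± 126 to 256 ± 36.7 CPM. Cebpb, an acute phase factor, rose by 1.31 (SE 0.24). After hepatectomy 3 rose and 4 fell (median -0.15). Cebpb rose by 2.18 (SE 0.24) and Cebpa, a factor of differentiated hepatocytes, fell by 1.501 (SE 0.23, edgeR adjusted p = 0.00301). Of 22 targets of NRF2, the factor of the antioxidant response element, 6 rose and 4 fell with depletion (median -0.07). Slc7a11, the cystine carrier, rose to 0.864 ± 0.614 CPM from a control mean below the level of 3 counts, and G6pdx from 5.95 ± 2.57 to 26.6 ± 2.06 CPM, while Gclc (log2 -1.51, SE 0.21) and Gsta4 (log2 -1.36, SE 0.29) fell. After hepatectomy 1 of the 22 rose (Hmox1, log2 1.56, SE 0.25) and 1 fell (Me1, log2 -0.81, SE 0.23). Of 15 targets of the xenobiotic and lipid receptors CAR, PXR, PPARA and AHR, 1 rose and 7 fell with depletion (median -0.65), among them Cyp1a2 from 957 ± 233 to 117 ± 107 CPM (log2 -3.03, SE 0.54, edgeR adjusted p = 0.00110). After hepatectomy 2 of these 15 rose, Tiparp (log2 1.96, SE 0.35) and Por (log2 1.06, SE 0.26).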

How the data were processed

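The authors deposited 1 table of raw read counts per gene for 13 libraries, made from TRIzol RNA (500 ng each) with a stranded mRNA kit and sequenced over 2 flowcell lanes, per the labels' protocols. STAR 2.7.1a, SAMtools 1.15.1, featureCounts 1.6.4 and the build mm10 are named in the submitters' processing notes. The settings for strand and multi-mapped reads are not given in the sources used here. Symbols and GRCm38 coordinates came from GENCODE M21, which matched 21818 gene IDs and left 230 unmatched. Totals of 35360991 to 51008737 counts put 3 counts at 0.0588 to 0.0848 CPM, for counting error only.

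Counts were tested with edgeR 4.0.16 in R 4.3.3 (filterByExpr, TMM, robust quasi-likelihood F-test, two-sided), with group and sex in 1 model over all libraries. Male and female controls were compared within the 6 controls. Benjamini-Hochberg adjustment ran over all genes tested, with calls at an adjusted p under 0.05. DESeq2 1.42.0 and limma 3.58.1 (voom) were alternatives, beside other scaling, filters, models and libraries left out. No batch or date of sequencing is in the labels used here.

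The members and gene lists were chosen with earlier results of these data known. All members are named. From each list, up to 2 genes called higher and 2 called lower per comparison with control were eligible, those with the largest fold changes, and the 3 genes most like each member by Pearson's r among genes with a mean log2 CPM of at least 1 (prior count 2). The text names some of the eligible genes, picked with their values seen, and 1 gene is not reported here.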

Additional observations from a re-analysis of the deposited data

How the results depend on the processing

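Under the alternatives run, the falls of Slco1a1 and Abcc2 with depletion lost their call among females alone, where 1 member was called lower and 2695 of 13444 genes were called, and Slco1a1 also without depleted replicate 3; Slco1b2 and Abcc4 kept theirs in all 23 alternatives. Leaving out 1 library at a time, 2 to 4 members were called lower and 1 higher with depletion (21.6% to 35.1% of all genes called), 0 to 1 lower after hepatectomy (3.43% to 10.6%), 0 to 2 lower and 1 higher in depleted against hepatectomised livers (12.4% to 28.0%), and 0 to 1 higher and 0 to 2 lower in male against female controls (0.241% to 1.51%). In depleted against hepatectomised livers the member called higher was Abcc3 in place of Abcc4 without hepatectomy replicate 3. After hepatectomy 1 member, Slco1b2, was called lower with library size alone (-0.95, with 15.8% of all genes called), DESeq2 (14.0%), no sex term (9.29%), the 2 groups only (7.16%), and control 4 and depleted 4 left out (12.5%), a pair chosen after seeing the data, so 1 of 9 was near these shares. In depleted against hepatectomised livers 0 were called lower with library size alone (26.8% of all genes called), no low-count filter (18.6%) or 2 groups only (15.5%), and 2 with control 4 and depleted 4 left out (28.7%). DESeq2 called 1 higher and 1 lower between the sexes (3.42%). Library size alone moved the median of all genes to -0.24 after hepatectomy and to 0.27 in depleted against hepatectomised livers.

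Reversals of sign touched values that passed no test. Slco2b1 with depletion became 0.095 with library size alone, 0.043 with limma-voom, 0.001 with no sex term, 0.060 with the replicate block and 0.014 in females only, and ran from -0.18 to 0.14 with 1 library left out. Slc22a7 with depletion (-0.49) was 0.0003 in females only. Abcc4 after hepatectomy became -0.16 with library size alone, -0.019 with limma-voom, -0.092 with no sex term and -0.28 with the replicate block, and ran from -0.40 to 0.34 with 1 library left out. With 1 library left out, Abcb1a after hepatectomy ran from -0.25 to 0.32. In depleted against hepatectomised livers, Slco1a4 (-0.41) ran from -1.03 to 0.23 and was 0.032 with the replicate block, and Slco2b1 ran from -0.034 to 0.30. In male against female controls, Slco2b1 ran from -0.43 to 0.12, Abcc2 from -0.044 to 0.42 and Abcc3 from -0.33 to 0.20, with 0.10 for Abcc3 in limma-voom. With control 4 and depleted 4 left out, the sex effect in depleted minus that in control livers was 0.37 for Slco1a1 (-1.87 with all libraries) and 0.019 for Slco2b1. The causes were not tested.

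Replicate numbers were not taken to pair the libraries. Deviations of same-numbered control and hepatectomised libraries correlated above 0.1 in 3 of 3 pairs, each matched for sex, and in 0 of 3 once sex was removed; control and depleted pairs did so in 0 of 4, and 1 of 4 with sex removed; hepatectomised and depleted pairs in 0 of 3, and 2 of 3 with sex removed. With the replicate block, Slco1a1 (-5.09), Slco1a4 (-0.93), Slco1b2 (-1.40) and Abcc2 (-0.90) were called lower and Abcc4 (1.77) higher with depletion, and over all genes 28.1% were called.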

Other observations

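Genes of the liver zones were measured in the same livers; with depletion 15.0% of all genes fell and 18.9% rose in edgeR. Of 21 pericentral genes, 18 fell (median log2 fold change -2.14), among them Cyp2e1 from 10630 ± 1466 to 1117 ± 252 CPM and Cyp7a1, the rate-limiting enzyme of bile acid synthesis, from 185 ± 90.0 to 14.5 ± 9.31 CPM. Of 20 periportal genes, 5 rose and 5 fell (median 0.04). The difference between the zones was not tested. Of 26 acute phase genes, 20 rose with depletion and 23 after hepatectomy, and of 25 proliferation genes, 14 and 23 rose, where 8.42% of all genes were called in either direction after hepatectomy.

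Of 17 male-biased liver genes tested, 4 fell with depletion, and of 20 female-biased genes, 6 fell, beside 15.0% of all genes that fell. The female-biased sum was 1205 CPM in depleted replicate 4, against 2174 and 2833 CPM in the other depleted females.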
